A study of Mus musculus with 9 samples.

Results

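The nucleoside transporters of the Slc28 and Slc29 families were followed in 9 mouse pancreas tumours. They were taken by gene symbol, under a rule that holds no measured value, and comprised 7 genes read by 12 of the array's 45281 probes. Of the 7 genes, 6 were detected often enough to be tested, among 11537 tested genes in all, and 7 of the 12 probes passed the same detection filter. The tumours arose spontaneously and fell into 3 groups of 3, each tumour from a mouse with its own number. The KPC group had intact Twist and Snail. The KPC;TwistcKO group (Twist cKO below) is described as KPC mice that lack Twist expression in the pancreas. The KPC;SnailcKO group (Snail cKO below) is described in the same way for Snail, and the name stands here for the label, since the Snai1 signal given below did not separate it from KPC. KPC mice are a standard engineered model of ductal pancreatic cancer in which a Cre recombinase switches on the tumour-driving alleles, and all 9 tumours share that genotype by label. Where that Cre is limited to pancreatic epithelium, as in the usual strain, the fibroblasts, vessels and immune cells of a tumour keep both deleted genes. The Cre line and the ages of the mice are not given in the sources used here.

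Nucleosides are too polar to cross membranes freely and need carrier proteins. Concentrative transporters (Slc28a1 to Slc28a3, proteins CNT1 to CNT3) use the sodium gradient to pull nucleosides into the cell, while equilibrative transporters (Slc29a1 to Slc29a4, proteins ENT1 to ENT4) let them move down their own gradient. The same carriers bring in nucleoside drugs, among them gemcitabine, a standard drug of pancreatic cancer, for which ENT1 is the best known entry route in human tumours. Twist and Snail are transcription factors of the epithelial-to-mesenchymal transition and bind E-boxes, short DNA motifs of the letters CANNTG. The comparisons below ask whether tumours of the Twist cKO or Snail cKO label differ from KPC tumours, or from each other, in the RNA of these carriers.

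Each tumour was read on its own 1-colour Illumina bead array, on which 16707 to 19606 probes were detected. The libraries differed in make-up within groups. The epithelial list, with 7 of 8 genes tested, had a median of -2.74 in KPC replicate 1 and -5.51 in Twist cKO replicate 2 (log2 units from each gene's mean over the tumours) against -0.07 to 1.62 in the other 7. Krt19, a duct keratin, stood at a log2 signal of 4.73 in Twist cKO replicate 2 and at 8.08 to 12.20 elsewhere. Epcam, another defining epithelial gene, was on the array but did not pass the detection filter. In Twist cKO replicate 2, Cd3d of T cells reached 12.66 and Cd79b of B cells 12.86, against at most 7.96 and 9.25 elsewhere, and the adipocyte median was 4.65. Values that leave out both of these tumours are given where a direction turned. Twist1 was at 4.60 to 5.23 in the Twist cKO tumours and at 7.25 to 9.19 in KPC, but Snail cKO replicate 2 was as low, at 4.65. That tumour also had the fewest detected probes, 16707 against 18864 or more, and the lowest fibroblast median, -1.65. Snai1 was at 6.08 to 7.79 in Snail cKO and 6.89 to 7.91 in KPC, so its probe did not separate the Snail cKO label from KPC. Because whole tumours were read, fewer cells of a type and less RNA per cell cannot be told apart.

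Promoter sequence is shown for the 3 genes on which the account below turns most, as the 250 bases before the annotated start in RefSeq (GRCm38.p6), 5′ to 3′ on the gene's strand. Slc29a1 is shown because it encodes ENT1 and had the most E-box letters of the family, and Slc28a2 with its neighbour Slc28a2b because both were detected in the same tumours. Capitals mark every CANNTG, a motif that reads the same on both strands in this form. The windows are chr17:45599619-45599868 on the minus strand for Slc29a1, chr2:122426185-122426434 on the plus strand for Slc28a2, and chr2:122484691-122484940 on the plus strand for Slc28a2b.
Slc29a1: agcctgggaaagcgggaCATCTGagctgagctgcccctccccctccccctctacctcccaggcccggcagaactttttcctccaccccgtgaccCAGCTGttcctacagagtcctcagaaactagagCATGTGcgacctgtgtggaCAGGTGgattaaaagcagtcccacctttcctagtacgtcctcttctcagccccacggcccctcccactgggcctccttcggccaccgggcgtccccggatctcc
Slc28a2: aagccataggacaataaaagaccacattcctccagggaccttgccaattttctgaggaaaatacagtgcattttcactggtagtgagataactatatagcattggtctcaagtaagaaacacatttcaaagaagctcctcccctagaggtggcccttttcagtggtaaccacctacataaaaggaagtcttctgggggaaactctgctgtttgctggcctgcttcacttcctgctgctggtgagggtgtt
Slc28a2b: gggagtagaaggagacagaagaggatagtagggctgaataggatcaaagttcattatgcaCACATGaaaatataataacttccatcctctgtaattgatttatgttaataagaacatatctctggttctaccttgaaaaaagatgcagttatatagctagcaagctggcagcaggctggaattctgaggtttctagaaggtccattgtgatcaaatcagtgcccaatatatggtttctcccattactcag
The Slc29a1 window held 4 matches, the Slc28a2 window 0 and the Slc28a2b window 1. The last of the 4 in Slc29a1 reads CAGGTG, the form of E-box best known for Snail. Among the other members, the windows of Slc28a3, Slc29a3 and Slc29a4 had 1 match each, while those of Slc28a1 and Slc29a2 had 0. The match of Slc28a3 reads CACCTG, which is CAGGTG on the other strand, so that form was not particular to Slc29a1. The match of Slc29a3 reads CAATTG, and that of Slc29a4 CATCTG, a form also present in Slc29a1. Of 27025 promoter windows of this length, 66.1% held at least 1 CANNTG. On either strand, 17.1% held CAGGTG and 14.5% held CATCTG. Having such letters in the window was therefore common, and a match is not a binding site. RefSeq lists 8 start windows for Slc29a1, and the one printed is that of the gene's annotated start.

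Slc29a1, the gene of ENT1, had nearly the same group means in all 3 genotypes, and its highest tumours lay in both deleted groups. Its brighter probe was detected on all 9 arrays. Its log2 signals were 9.09, 9.48 and 9.29 in KPC, 8.49, 9.17 and 10.12 in Twist cKO, and 9.14, 9.90 and 9.03 in Snail cKO. KPC was tightly grouped, Twist cKO held both the lowest and the highest tumour of the study, and every group overlapped the others. The means were 9.29 ± 0.20 (SD, n = 3) in KPC, 9.26 ± 0.82 in Twist cKO and 9.36 ± 0.47 in Snail cKO, with Snail cKO first, KPC second and Twist cKO last, and no neighbours apart by more than their spread.

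The Slc29a1 difference was -0.03 ± 0.43 (log2, SE) for Twist cKO against KPC and 0.07 ± 0.43 for Snail cKO against KPC. With both deleted groups averaged, it was 0.02 ± 0.37 against KPC. The limma adjusted p was at least 0.978 in each, and 0 of 11537 genes (0%) passed the threshold of 0.05 in any of the 4 comparisons, so no member did. The 95% interval of the averaged comparison, not adjusted for the number of genes, ran from 0.562-fold to 1.84-fold of KPC. Changes within that range remain possible, and its ends are not the smallest change that the adjusted test would have found. For Twist cKO against KPC the interval ran from 0.496-fold to 1.94-fold, and for Snail cKO from 0.531-fold to 2.08-fold. The direction for Twist cKO rested on single tumours: without Twist cKO replicate 3 the difference was -0.46, without Twist cKO replicate 1 it was 0.36, and with median scaling of the arrays in place of quantile normalization it was 0.12. For the averaged groups it was -0.19 and 0.22 without the same tumours.

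**Figure D1:**
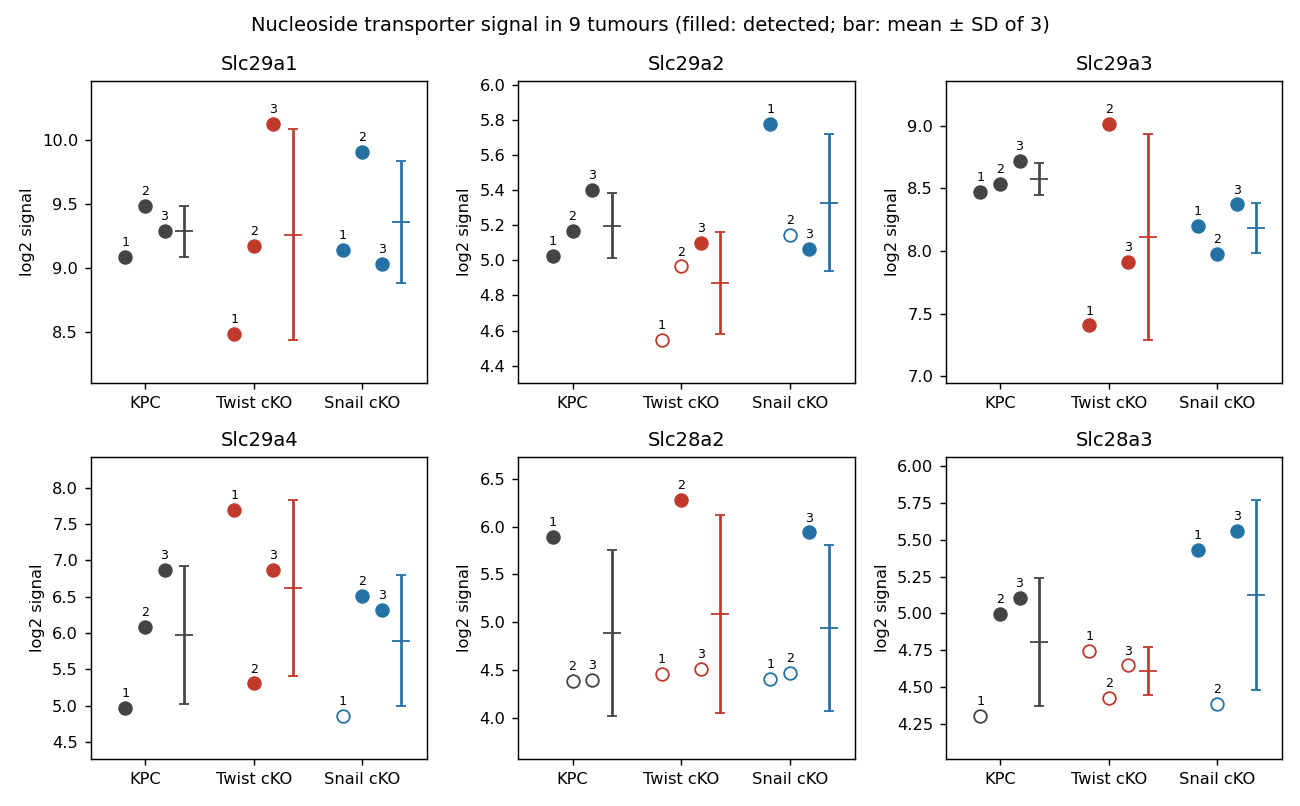
Log2 signal (background-corrected and quantile-normalized, y axis) of the 6 tested nucleoside transporters, a panel each, by genotype (x axis), with a point for each tumour labelled by its replicate number, filled where detected, and bars at the mean ± SD of 3 tumours. Slc29a1 ran from 8.49 to 10.12 with both extremes in Twist cKO, and the groups overlapped for every gene except Slc29a3 between Snail cKO and KPC.

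A second Slc29a1 probe, much dimmer, ordered the tumours differently. By tumour, its log2 signals were 5.44, 5.25 and 4.51 in KPC, 5.41, 5.62 and 5.83 in Twist cKO, and 5.36, 5.64 and 4.62 in Snail cKO. It was detected in all 3 Twist cKO tumours but not in KPC replicate 3 or Snail cKO replicate 3, and the groups overlapped. The Twist cKO mean was 5.62 ± 0.21 against 5.07 ± 0.49 in KPC, a difference of 0.55 ± 0.36 (SE) that did not pass (limma adjusted p = 0.988 over all named probes, exact two-sided permutation p = 0.2). Over the 9 tumours the 2 probes had a Pearson r of 0.371 and a Spearman rho of 0.417, given as a description. Probe sequences were not used here, so which transcripts each probe reads was not examined.

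**Figure D2:**
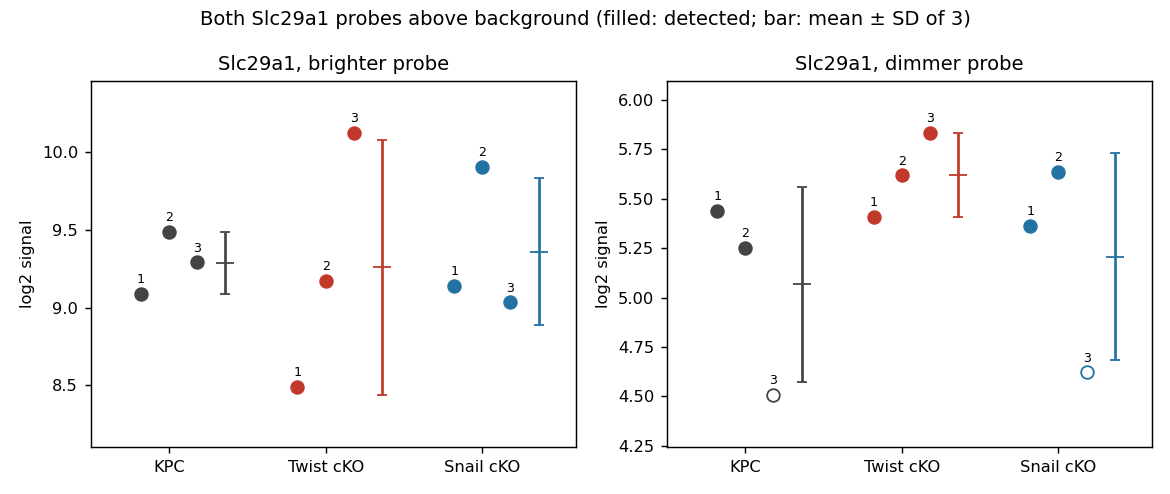
Log2 signal (y axis) of the brighter and the dimmer Slc29a1 probe, a panel each, by genotype (x axis), with a point for each tumour labelled by its replicate number, filled where detected, and bars at the mean ± SD of 3 tumours. Twist cKO replicate 3 is highest on both, at 10.12 and 5.83, while Twist cKO replicate 1 is the lowest on the brighter probe, at 8.49, and detected at 5.41 on the dimmer.

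Slc29a2, the gene of ENT2, which also carries nucleobases, was dim and above background in 6 of 9 tumours. On the log2 scale it read 5.03, 5.17 and 5.40 in KPC, 4.55, 4.96 and 5.10 in Twist cKO, and 5.77, 5.15 and 5.06 in Snail cKO. It was detected in all 3 KPC tumours, in 1 Twist cKO tumour (replicate 3) and in 2 Snail cKO tumours (replicates 1 and 3), and the groups overlapped. The means were 5.33 ± 0.39 in Snail cKO, 5.20 ± 0.19 in KPC and 4.87 ± 0.29 in Twist cKO, in that order, and neither pair of neighbours passed the test.

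The largest Slc29a2 difference was Snail cKO against Twist cKO, at 0.46 ± 0.29 (SE, limma unadjusted p = 0.149), with a 95% interval from -0.20 to 1.12. Twist cKO against KPC gave -0.33 ± 0.29, and -0.17 without Twist cKO replicate 1. Snail cKO against KPC gave 0.13 ± 0.29. Without Snail cKO replicate 1, the highest tumour, this turned to -0.09 and the difference from Twist cKO was 0.24. A second Slc29a2 probe was not well above background on any array.

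Slc29a3, the gene of ENT3, a carrier of lysosomes and other inner membranes that is known from macrophages, gave the only groups of any member that did not overlap. Its log2 signals were 8.47, 8.54 and 8.72 in KPC, 7.40, 9.01 and 7.91 in Twist cKO, and 8.20, 7.98 and 8.37 in Snail cKO. All 3 Snail cKO tumours lay below all 3 KPC tumours, while Twist cKO held both the lowest and the highest tumour. The means were 8.58 ± 0.13 in KPC, 8.18 ± 0.20 in Snail cKO and 8.11 ± 0.82 in Twist cKO.

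The Slc29a3 difference for Snail cKO against KPC was -0.39 ± 0.39 (SE), with a 95% interval from -1.29 to 0.51, and did not pass (limma unadjusted p = 0.347). The exact two-sided permutation p was 0.1, the smallest that 3 against 3 allows. Among all tested genes, 5.84% had Snail cKO wholly below KPC and 8.69% had these groups apart in either direction, so 1 of 6 members is near the background. Leaving out any 1 tumour kept the difference between -0.49 and -0.29, but it was -0.08 in the authors' processed table. It was -0.20 for Snail cKO replicate 3, the only Snail cKO tumour in the first of the array sets described further on. Twist cKO against KPC gave -0.47 ± 0.39, ranging from -0.92 without Twist cKO replicate 2 to -0.11 without Twist cKO replicate 1.

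Macrophage markers differed in the same direction. All 7 tested macrophage genes of 8 had a lower mean in Snail cKO than in KPC, with a median difference of -1.03, and all 7 were also lower in Twist cKO, with a median of -0.53. The count for Twist cKO rested on single tumours. Without KPC replicate 1, 4 of 7 (Adgre1, Csf1r, Lyz2 and Itgam) were higher in Twist cKO and the median was 0.28. Without KPC replicate 1 and Twist cKO replicate 2, 3 of 7 (Csf1r, Lyz2 and Itgam) were higher and the median was -0.19. Leaving out Twist cKO replicate 1 or replicate 3 also made 3 of 7 higher. Snail cKO was lower for 7 of 7 without KPC replicate 1 too, with a median of -0.31. None of the 7 passed the adjusted threshold. The direction was not particular to macrophage genes. All 8 tested fibroblast genes of 9 had a lower mean in Snail cKO than in KPC (median -0.86). In Twist cKO 6 were lower and 2 higher (median -0.40). Over all tested genes, 46% had a higher mean in Snail cKO than in KPC and 43.7% in Twist cKO. The macrophage median deviation ran from -0.45 to 1.87 in KPC, from -0.26 to 0.05 in Twist cKO and from -1.19 to 0.04 in Snail cKO. It was highest in KPC replicate 1 and lowest in Snail cKO replicate 2. Across the 9 tumours Slc29a3 and the macrophage median had an r of 0.165 (exact permutation p = 0.665) and a rho of 0.08. Without KPC replicate 1 and Snail cKO replicate 2 the r was -0.125. The part of macrophage content in the Slc29a3 values was not tested further.

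Slc29a4, the gene of ENT4, which carries monoamines and, in acid surroundings, adenosine, had the widest spread within groups of the tested members. In log2 units it read 4.97, 6.09 and 6.87 in KPC, 7.69, 5.31 and 6.87 in Twist cKO, and 4.86, 6.51 and 6.32 in Snail cKO. Twist cKO replicate 1 was the highest tumour, Snail cKO replicate 1 and KPC replicate 1 were the lowest, and the groups overlapped throughout. It was detected in every tumour except Snail cKO replicate 1. The means were 6.62 ± 1.21 in Twist cKO, 5.98 ± 0.95 in KPC and 5.90 ± 0.90 in Snail cKO.

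The Slc29a4 difference for Twist cKO against KPC was 0.65 ± 0.73 (SE, limma unadjusted p = 0.403), with an interval from 0.491-fold to 4.98-fold. Leaving out Twist cKO replicate 1 lowered it to 0.11 and leaving out Twist cKO replicate 2 raised it to 1.30. Snail cKO against KPC gave -0.08 ± 0.73, which turned to 0.44 without Snail cKO replicate 1. Against KPC, the averaged deleted groups stood at 0.28 ± 0.63, and at -0.22 without KPC replicate 1. Its SD within groups, 1.03, lay at the 85.1 percentile of all tested genes, where the median gene had 0.49. The other 2 Slc29a4 probes were not well above background on any array.

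Slc29a4 gave 3 of the 5 relations to marker lists that had an unadjusted p under 0.05. Over the 9 tumours its r with the epithelial median was 0.673 (exact permutation p = 0.0442) and its rho was 0.70 (p = 0.0433), but after adjustment over 78 relations between 6 members and 13 marker lists the p was 0.726, and 0 relations passed. Leaving out the tumours farthest from the median, KPC replicate 1 and Twist cKO replicate 2, gave an r of 0.799. Its r was 0.698 with the hepatocyte median (exact p = 0.0396, rho 0.65), and 0.834 without Twist cKO replicate 3 and Snail cKO replicate 3. With the proliferation median it was -0.717 (exact p = 0.0313, rho -0.53), and -0.276 without KPC replicate 1 and Snail cKO replicate 1. Sets of arrays, described further on, held 5 and 4 tumours, each too few for an r of its own.

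**Figure D3:**
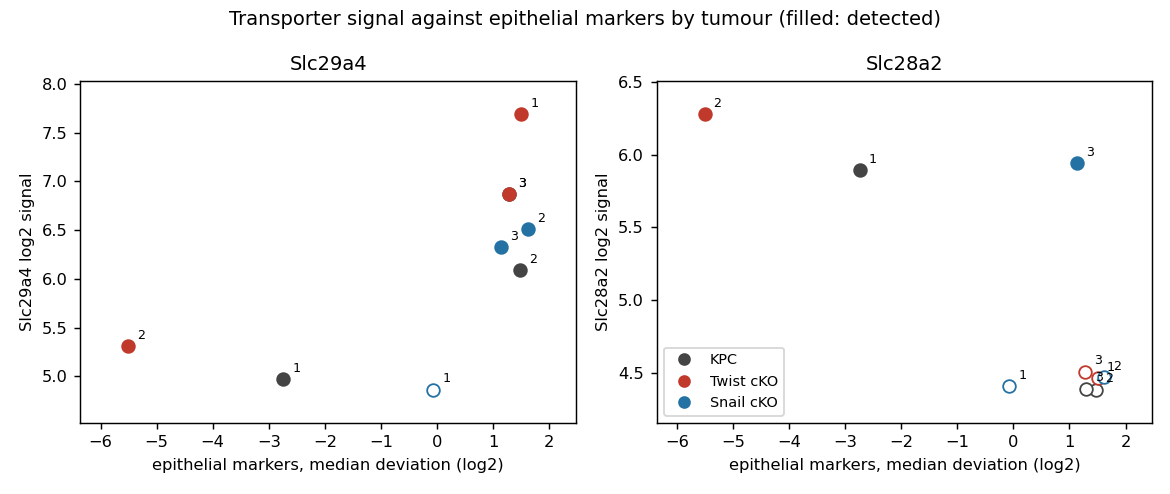
Log2 signal of Slc29a4 and of Slc28a2 (y axes) against the median of the 7 tested epithelial markers, as log2 deviation from each gene's mean over the tumours (x axes), with a point for each of the 9 tumours coloured by genotype, labelled by replicate and filled where detected. KPC replicate 1 and Twist cKO replicate 2, at -2.74 and -5.51, stand apart on the left, low for Slc29a4 (4.97 and 5.31) and high for Slc28a2 (5.89 and 6.28), and the Slc29a4 points of KPC replicate 3 and Twist cKO replicate 3 coincide at 6.87.

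Among the concentrative carriers, Slc28a1 (CNT1, which favours pyrimidines) was not detected in any tumour. Its single probe had raw bead intensities of 90.2 to 96.9 in KPC, 96.9 to 108.1 in Twist cKO and 89.6 to 114.7 in Snail cKO, none well above background, so it was not tested. Array medians of raw intensity over all probes were 99.1 to 125.4, close to the values of this probe. The carrier is best known from epithelium of liver, kidney and gut.

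Slc28a3, the gene of CNT3, which takes both purines and pyrimidines, was detected in 4 tumours. Its log2 signals were 4.30, 5.00 and 5.11 in KPC, 4.75, 4.43 and 4.65 in Twist cKO, and 5.43, 4.38 and 5.56 in Snail cKO. The 4 detected tumours were KPC replicates 2 and 3 and Snail cKO replicates 1 and 3, whereas 0 of 3 Twist cKO arrays detected it. Means were 5.13 ± 0.65 in Snail cKO, 4.80 ± 0.44 in KPC and 4.61 ± 0.16 in Twist cKO.

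Slc28a3 was not well above background in any Twist cKO tumour, nor in Snail cKO replicate 2 and KPC replicate 1. The sizes of its differences therefore rest in part on background readings. The difference between the deleted groups did not pass (limma unadjusted p = 0.201, exact permutation p = 0.4). Snail cKO against KPC was 0.32 ± 0.37 (SE) on the log2 scale, ranging from 0.0722 without KPC replicate 1 to 0.69 without Snail cKO replicate 2. A second Slc28a3 probe was not well above background on any array.

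Slc28a2, the gene of CNT2, which favours purines and uridine, was detected in exactly 1 tumour of each genotype. On the log2 scale its signals were 5.89, 4.39 and 4.39 in KPC, 4.46, 6.28 and 4.51 in Twist cKO, and 4.41, 4.47 and 5.94 in Snail cKO. KPC replicate 1, Twist cKO replicate 2 and Snail cKO replicate 3 were at 5.89 or above and the other 6 at 4.51 or below. In raw bead intensity those 3 arrays read 138.5, 173.3 and 146.2, against 89.4 to 111.6 on the rest. Group means were therefore close, at 4.89 ± 0.87 in KPC, 5.08 ± 1.03 in Twist cKO and 4.94 ± 0.87 in Snail cKO. The differences from KPC were 0.19 ± 0.66 (SE) for Twist cKO and 0.05 ± 0.66 for Snail cKO, and they turned to -0.40 without Twist cKO replicate 2 and to -0.45 without Snail cKO replicate 3.

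Slc28a2b, the neighbouring gene of the same family by name but not among the 7 members, was detected in the same 3 tumours. Its log2 signals were 7.20, 4.52 and 4.36 in KPC, 4.35, 8.14 and 4.33 in Twist cKO, and 4.37, 4.37 and 7.52 in Snail cKO. It was the closest of all 11536 other tested genes to Slc28a2 in pattern, with an r of 0.997 over the 9 tumours. The genes lie on chromosome 2 with 1 annotated gene between them, the pseudogene Bambi-ps1. Aligned end to end with gaps allowed, their promoter windows printed above had 119 identical bases, 47.6% of the 250. This lies within the 41.2% to 56.4% of the 27 other pairs among these promoters. Whether either probe also reads the transcript of the other gene was not tested.

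**Figure D4:**
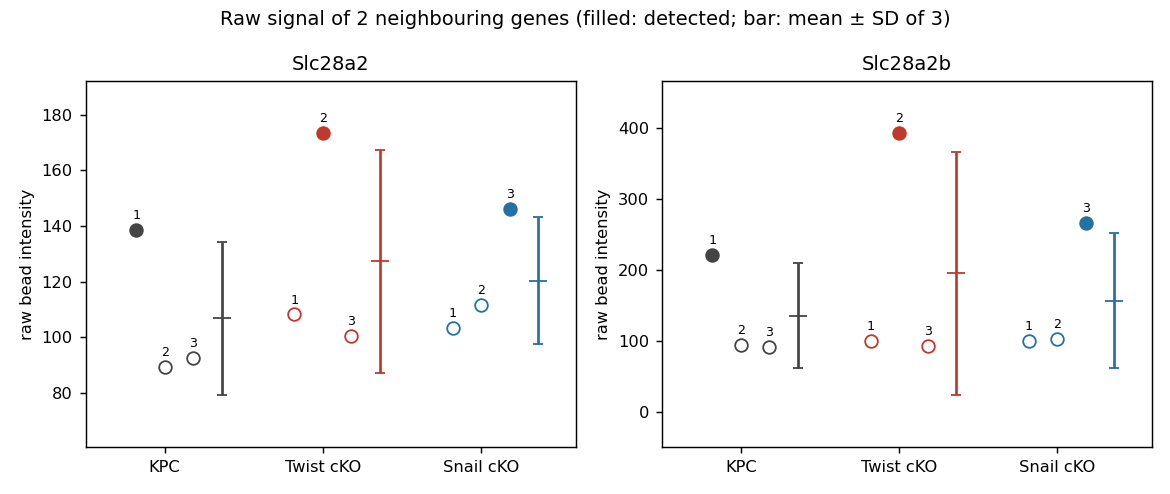
Raw bead intensity (y axis, linear, with a scale for each panel) of the Slc28a2 and Slc28a2b probes by genotype (x axis), with a point for each tumour labelled by its replicate number, filled where detected, and bars at the mean ± SD of 3 tumours. The same 3 tumours, 1 of each genotype, are high for both, at 138.5, 173.3 and 146.2 for Slc28a2 and 221.6, 392.9 and 266.3 for Slc28a2b.

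The 3 tumours with Slc28a2 signal were not alike in their markers. KPC replicate 1 and Twist cKO replicate 2 had the lowest epithelial medians, at -2.74 and -5.51, and the lowest duct medians, at -2.66 and -4.08. Snail cKO replicate 3 stood at 1.14 and 1.53 on these lists and had the highest acinar median, at 3.16. Slc28a2 had an r of -0.769 with the epithelial median (exact permutation p = 0.0151, adjusted p = 0.726, rho -0.58), which was -0.0014 without KPC replicate 1 and Twist cKO replicate 2, so the relation rests on those tumours. The same held for the duct list, with r = -0.691 (exact p = 0.0489, rho -0.40) and 0.397 without them.

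Across the family, direction was mixed in every comparison. Of the 6 tested members, 2 had a higher mean in Twist cKO than in KPC, where 43.7% of all tested genes did, and the median difference was -0.11 against -0.07 over all genes. In Snail cKO, 4 members had a higher mean than in KPC, where 46% of all genes did, with a median of 0.06 against -0.04. Set against Twist cKO, Snail cKO was likewise higher for 4 members, where 52.2% of genes were, with a median of 0.09 against 0.02. The average of both deleted groups was above KPC for 4 members, where 44.7% of genes were, with a median of 0.04 against -0.04. The comparisons with KPC share the 3 KPC tumours.

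Neither the test nor the order of the tumours set the family apart. A limma unadjusted p under 0.05 was reached by 0 members in each comparison. Over all tested genes it was reached by 3.55% for Twist cKO and 2.7% for Snail cKO against KPC, by 3.78% between the deleted groups and by 2.88% for their average against KPC. Groups without overlap were found for 0 members and 8.06% of genes between Twist cKO and KPC, for 0 members and 8.22% of genes between the deleted groups, and for 0 members and 1.93% of genes between all 6 deleted tumours and KPC. The single member apart was Slc29a3 between Snail cKO and KPC.

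The arrays fell into 2 sets by their median raw signal, 99.1 to 107.2 in 5 arrays and 115.4 to 125.4 in 4, and slides are not labelled. The first set held all 3 KPC tumours with Twist cKO replicate 3 and Snail cKO replicate 3. With the set as a block, Twist cKO against KPC gave 0.24 for Slc29a1, -0.34 for Slc29a2, -0.47 for Slc29a3 and 0.98 for Slc29a4. Snail cKO against KPC then gave 0.34 for Slc29a1, 0.11 for Slc29a2, -0.40 for Slc29a3 and 0.26 for Slc29a4. Within the first set alone, Slc29a1 stood at 0.83 against KPC in the Twist cKO tumour and at -0.25 in the Snail cKO tumour, so its sign in both contrasts depended on which arrays were used. Slc29a3 was below KPC there in both, at -0.66 and -0.20.

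**Figure D5:**
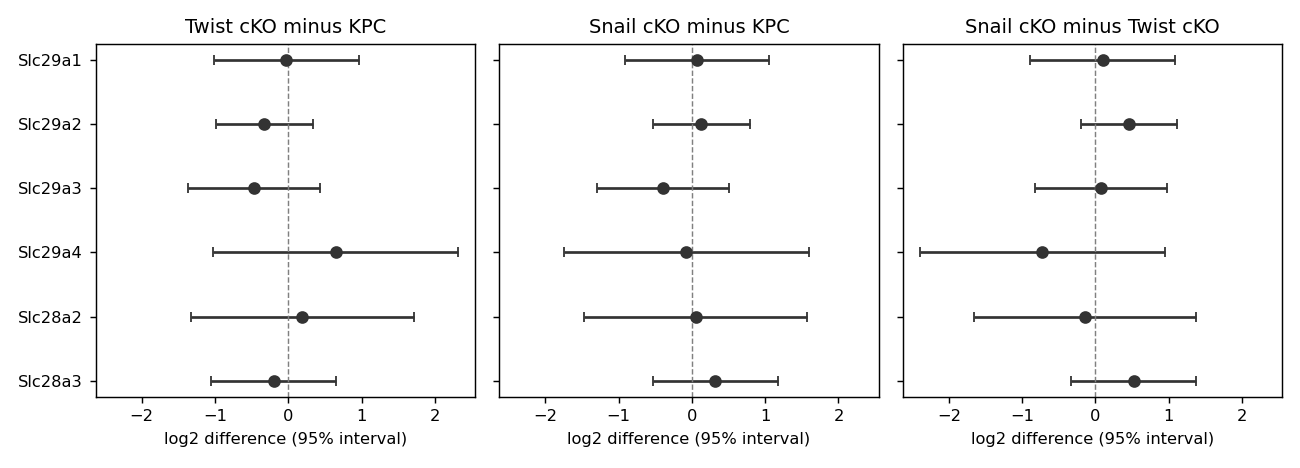
Log2 difference (x axis) with its 95% interval from limma for the 6 tested members (rows), in a panel each for Twist cKO minus KPC, Snail cKO minus KPC and Snail cKO minus Twist cKO. Every interval includes 0, and the widest belong to Slc29a4, such as -1.03 to 2.32 for Twist cKO against KPC.

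The members did not move as a unit. Over the 9 tumours, r between pairs of members ran from -0.586 (Slc29a3 with Slc29a4) to 0.526 (Slc28a2 with Slc29a3) over 15 pairs. Among all tested genes with a proper name, Slc29a3 was most like Mss51 (r = 0.978), Washc4 (0.967), of the WASH complex of endosomes, and Dcaf7 (0.939), and Slc29a4 was most like Arhgap40 (0.961), Fndc10 (0.939) and Lrfn3 (0.918). Slc29a1 was most like Pkn3 (0.913), a protein kinase, Rab22a (0.899), a GTPase of endosomes, and Aldh2 (0.893), the mitochondrial aldehyde dehydrogenase. These are the highest values among 11536 genes and carry no p.

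Arhgap40 is given by tumour as an example. By tumour, the log2 signals were 4.78, 5.96 and 6.71 in KPC, 7.11, 4.87 and 6.71 in Twist cKO, and 4.87, 6.62 and 5.66 in Snail cKO. Like Slc29a4, it was highest in Twist cKO replicate 1 and low in KPC replicate 1, Twist cKO replicate 2 and Snail cKO replicate 1. Arhgap40 was detected on 6 arrays and not in these low tumours, so its r with Slc29a4 rests in part on background readings. Among the genes named next, Cmpk2 was detected on 6 arrays, Unc13c on 7 and Mcpt4 on 5, so the same limit applies to them. After Slc28a2b, Slc28a2 was most like Tiam1 (0.955), an activator of Rac, and Cmpk2 (0.943), a mitochondrial nucleotide kinase induced by interferon. Slc28a3 was most like Unc13c (0.929), Mcpt4 (0.920), a mast cell protease, and Tssc4 (0.917), and Slc29a2 like Zfp658 (0.904), Copa (0.904), a coat protein of transport vesicles, and Slc4a1ap (0.899).

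Once inside the cell, nucleosides are phosphorylated, deaminated or cleaved, while outside it ectonucleotidases make nucleosides from nucleotides and adenosine acts on receptors. Of 43 genes listed for all of these steps, 34 were tested. None passed the adjusted threshold in any comparison. Their means were higher in 14 and lower in 20 for Twist cKO against KPC (median -0.10), where 43.7% of all tested genes were higher. For Snail cKO against KPC they were higher in 22 and lower in 12 (median 0.22), where 46% of all tested genes were higher. Snail cKO against Twist cKO also gave 22 higher and 12 lower (median 0.17), where 52.2% of all tested genes had the higher mean in Snail cKO. An unadjusted limma p under 0.05 was reached by 3 of the 34 in each of these 3 comparisons and by 1 for both groups against KPC, the receptor gene Adora3. Over all tested genes the shares were 3.55%, 2.7% and 3.78% in the same order, and 2.88% for both groups.

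The smallest unadjusted p of the pathway belonged to Upp1, uridine phosphorylase, which splits uridine to uracil. The log2 signals of Upp1 were 10.29, 10.69 and 9.76 in KPC, 9.01, 8.43 and 9.67 in Twist cKO, and 12.17, 10.99 and 10.86 in Snail cKO. The 3 genotypes did not overlap, with Twist cKO lowest and Snail cKO highest. Snail cKO against Twist cKO gave 2.30 ± 0.47 (SE, limma unadjusted p = 0.000909, adjusted p = 0.986), and the other 2 Upp1 probes gave 2.45 and 2.19. Against KPC the difference was -1.21 ± 0.47 for Twist cKO (unadjusted p = 0.0296) and 1.09 ± 0.47 for Snail cKO (unadjusted p = 0.0447), the latter 0.68 without Snail cKO replicate 1. Within the first array set alone, Snail cKO replicate 3 stood 1.19 above Twist cKO replicate 3, the only deleted tumours there. Snail cKO lay wholly above Twist cKO for 4.25% of all tested genes. Twist cKO lay wholly below KPC for 5.07%, and Snail cKO wholly above KPC for 2.84%. The share with all 3 groups apart was not counted.

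Cda, cytidine deaminase, which inactivates gemcitabine, was at 7.02, 5.68 and 6.63 in KPC, 8.21, 4.80 and 7.44 in Twist cKO, and 9.43, 7.53 and 8.58 in Snail cKO. All Snail cKO tumours lay above all KPC tumours, as for 2.84% of all tested genes, and Twist cKO replicate 2, the tumour lowest in epithelial markers, had the lowest value. The difference of Snail cKO from KPC was 2.07 ± 0.87 (SE, limma unadjusted p = 0.0424, adjusted p = 1.00). Twist cKO against KPC gave 0.37 ± 0.87, which turned to -0.33 without Twist cKO replicate 1.

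Adora3, the adenosine A3 receptor, was at 5.85, 5.95 and 5.35 in KPC, 4.66, 4.48 and 4.86 in Twist cKO, and 4.45, 4.33 and 5.14 in Snail cKO. All 6 deleted tumours lay below all 3 KPC tumours, as did 1.33% of all tested genes. It was detected in 3 KPC tumours, 0 Twist cKO tumours and 1 Snail cKO tumour. With Twist cKO readings raised to the lowest detected signal of their array where below it, the KPC mean was 1.67-fold that of Twist cKO. That value holds for the main processing and is no firm lower limit. Twist cKO against KPC was -1.05 in the main fit and -0.37 with no background correction. The averaged deleted groups stood at -1.07 ± 0.26 (SE) against KPC, a size that rests on background readings in 5 of 6 deleted tumours, with a limma unadjusted p of 0.00326, an adjusted p of 0.999 and an exact permutation p of 0.0238, the smallest that 6 against 3 allows. It was -0.39 with no background correction, -0.55 with an offset of 50 and -0.72 with array set as a block. The other 3 adenosine receptors were not tested. Macrophage and fibroblast marker means were lower in Snail cKO too, as given above. Macrophage means were also lower in Twist cKO, with a count that depended on single tumours. The part of macrophage or other cell content in the Adora3 values was not tested.

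Enzymes that activate gemcitabine or that it blocks showed smaller differences. Dck, deoxycytidine kinase, which adds its first phosphate, differed by -0.17 for Twist cKO against KPC and by 0.34 for Snail cKO. Its probe was dim and detected in only 2 KPC tumours, and the Snail cKO difference was 0.012 without KPC replicate 3. Rrm1 and Rrm2, subunits of ribonucleotide reductase, differed by -0.13 and -0.43 for Twist cKO and by 0.23 for both genes for Snail cKO. The sign for Rrm1 in Twist cKO was opposite on its second probe, at 0.42. Nme1, a nucleoside diphosphate kinase, was at 13.21, 13.17 and 13.11 in KPC and at 12.71, 12.66 and 12.55 in Twist cKO, without overlap, a difference of -0.52 ± 0.21 (SE, limma unadjusted p = 0.0364), while Snail cKO stood at 13.22, 13.21 and 13.08. The Twist cKO difference was -0.30 with median scaling and -0.16 in the authors' processed table. Among all tested genes, 5.07% had Twist cKO wholly below KPC.

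Other pathway genes with the smallest unadjusted p in some comparison gave differences of 1 log2 unit or so and less. Against KPC, Twist cKO gave 0.96 for Entpd2 (an enzyme that splits extracellular ATP), 0.84 for Samhd1 (which destroys deoxynucleotides) and 0.34 for Uck1 (uridine-cytidine kinase). The first turned to -0.14 without KPC replicate 1, and without Twist cKO replicate 2 the second turned to -0.13 and the third was 0.15. Snail cKO against KPC gave 0.48 for Cmpk1 (UMP-CMP kinase), -0.56 for Nt5c (a nucleotidase) and -0.39 for Hprt (purine salvage). Cmpk1 was 0.28 without Snail cKO replicate 3, and other Hprt probes gave 0.03 and -0.27. Nt5c was -0.05 within the first array set, where Snail cKO replicate 3 is the only Snail cKO tumour. Snail cKO against Twist cKO gave 1.29 for Dctd (dCMP deaminase, limma unadjusted p = 0.0435), -0.55 for Tk2 and -0.51 for Dguok, the mitochondrial deoxynucleoside kinases. Without Twist cKO replicate 2, Tk2 was at -0.19 and Dguok at -0.17, and a second Dguok probe gave 0.05. Dctd was 0.33 within the first array set, as Snail cKO replicate 3 minus Twist cKO replicate 3. All 6 listed deaminases and phosphorylases had higher means in Snail cKO than in Twist cKO, with a median difference of 0.90, but Upp1 and Dctd alone had an unadjusted p under 0.05 among them. Without Snail cKO replicate 3 it was 5 of 6, as Ada turned. In the same comparison 6 of 7 epithelial markers (median 1.68), 5 of 5 tested duct markers (median 2.43) and 7 of 7 tested proliferation markers (median 0.55) had higher means in Snail cKO too. Without Twist cKO replicate 2 these counts were 1 of 7, 3 of 5 and 6 of 7, against 6 of 6 (median 0.74) for the enzymes, and the part of the markers in the enzyme values was not tested.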

How the data were processed

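Total RNA of 9 tumours was hybridised to 1-colour Illumina mouse arrays, 1 array for each tumour. The labels give 3 mice per group, the series' design text 2, and no tumour was left out. Per the file headers, the authors deposited for every probe and array its mean bead intensity, linear and not normalized, with a detection p-value. They also deposited a processed intensity table, each column of which was linear in the bead intensity of its array (slopes 0.795 to 1.16). Its column medians were 14.6, 13.7 and 17.3 for KPC, 21.7, 22.4 and 11.2 for Twist cKO and 21.7, 23.3 and 9.3 for Snail cKO. It was thus linear, uncentred and in the same direction, and what set its scaling is unknown. GenomeStudio 5.0 is named in the submitters' processing notes.

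The deposited intensity values were background-corrected through the detection p-values, offset by 16, quantile-normalized and log2-transformed in limma 3.58.1 (R 4.3.3). Probes with a detection p under 0.05 on at least 3 arrays were kept (20940), and 17841 of them had a single symbol in the platform annotation, which gave 1 symbol for 34885 probes, several for 18 and none for 10378. Of these symbols' probes, 34807 were found in RefSeq (GRCm38.p6). A gene took its kept probe of highest mean. The groups' means were fitted over all 9 arrays with lmFit and eBayes, two-sided, Benjamini-Hochberg over all 11537 genes, threshold 0.05. A single probe was also compared by an exact permutation test (28 tests on member probes). Correlations used exact pairings in scipy 1.17.1. The limma step was tested on simulated data. The spread behind each p-value is that between tumours, and precision is limited by how many arrays there are.

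Named were all members, the 3 genes most like each, and the 3 pathway genes of smallest p per direction and comparison with Dck, Cda, Rrm1 and Rrm2. Members and lists were chosen with earlier results of these data known. Alternatives changed the background, offset, scaling, source table, filter, probe rule, model, array set and tumours used. Promoter windows came from RefSeq, and protein and probe sequences were not used here. Counts of list members without single tumours were added after seeing the data.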

Additional observations from a re-analysis of the deposited data

Results flagged for a closer look

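Slc28a2b, the neighbour of Slc28a2 on chromosome 2 and no member of the list, carried signal outside the main measurement. Its highest tumour, Twist cKO replicate 2, reached a log2 signal of 8.14, above 7.20 in the highest KPC tumour, and 1 tumour of each genotype was detected. The dimmer Slc29a1 probe, which does not represent the gene in the fit, reached 5.83 in Twist cKO replicate 3, above 5.44 in the highest KPC tumour. Both were flagged only because the highest detected deleted tumour lay above the highest KPC tumour. With more deleted than KPC tumours, that is common without any genotype difference. No group difference of either probe passed in limma, and the groups overlapped.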

How the results depend on the processing

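No paired analysis was possible because each mouse has its own number in the labels, so groups share none. No gene passed in any comparison under any alternative except without Twist cKO replicate 1, when 3 passed for Twist cKO against KPC and 1 for Snail cKO against Twist cKO, so that the counts ran from 0 to 3 and from 0 to 1 when single tumours were left out. Of 526 member differences under alternatives, 468 kept their direction and 58 turned, with a smallest limma adjusted p of 0.712. Of 846 pathway differences, 814 kept it and 32 turned (smallest 0.479). Many of those kept could not have turned, so these counts do not measure stability. Leaving out a tumour of a group not compared, or changing only how the spread is modelled, leaves the difference as it was. The array-set block likewise leaves Snail cKO against Twist cKO unchanged. With every named probe tested in place of 1 per gene, 1 of 17841 passed for Twist cKO against KPC and 1 for both groups against KPC, and neither reads a member. The cause was not tested. Dimness limits Slc28a1, Slc28a2, Slc28a3 and Slc29a2, whose probes were detected on 6 arrays or fewer.

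For Twist cKO against KPC, Slc29a1 turned to 0.016 with cyclic loess, 0.12 with median scaling, 0.26 in the authors' processed table, 0.26 as the mean of its probes, 0.83 within array set 1 and 0.24 with that set as a block. Slc28a3 turned to 0.0418 with the block and Slc28a2 to -0.38 within set 1. Values within set 1 rest on single deleted tumours, Twist cKO replicate 3 and Snail cKO replicate 3. Rrm1 turned to 0.0093 with median scaling, 0.15 in the processed table, 0.14 as a mean of probes and 0.0871 without the pair KPC replicate 1 and Twist cKO replicate 2. Dck turned to 0.0427 in the processed table, Samhd1 to -0.46 and Rrm2 to 0.054 within set 1, and Entpd2 to -0.10 without that pair of tumours. For Snail cKO against KPC, Slc29a4 turned to 0.0254 with median scaling, 0.29 in the processed table, 0.26 with the block and 0.35 within set 1. Within set 1, Slc29a1 turned to -0.25, Slc29a2 to -0.13, Dck to -0.0945 and Rrm2 to -0.0717, and Slc29a1 was -0.03 without the pair. For Snail cKO against Twist cKO, taking the mean of probes turned Slc29a1 to -0.16 and Rrm1 to -0.0045. Within set 1, Slc28a2 turned to 1.43, Slc29a1 to -1.09, Slc29a2 to -0.036 and Rrm2 to -0.13, Slc29a3 turned to -0.12 within set 2, and Slc28a2 to 0.45 without the pair. For both groups against KPC, the processed table turned Slc29a2 to 0.12, Nme1 to 0.11 and Rrm2 to 0.23. Rrm2 was 0.0362 with median scaling and 0.21 without the pair, Dck -0.24 within set 1 and also with the block, and Slc28a3 -0.14 and Slc29a1 -0.06 without the pair.

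Leaving out single tumours gave these ranges where a direction turned. Twist cKO against KPC ran from -0.40 to 0.69 for Slc28a2, -0.46 to 0.36 for Slc29a1, -0.14 to 1.58 for Entpd2, -0.13 to 1.49 for Samhd1, -0.50 to 0.10 for Dck, -0.33 to 1.38 for Cda (1.67 without the pair) and -0.23 to 0.0052 for Rrm1. Snail cKO against KPC ran from -0.45 to 0.55 for Slc28a2, -0.20 to 0.23 for Slc29a1, -0.0922 to 0.26 for Slc29a2, -0.58 to 0.44 for Slc29a4 and -0.0075 to 0.53 for Rrm2. Snail cKO against Twist cKO ran from -0.64 to 0.45 for Slc28a2, -0.29 to 0.53 for Slc29a1 and -0.28 to 0.52 for Slc29a3. Both groups against KPC ran from -0.18 to 0.62 for Slc28a2, -0.19 to 0.25 for Slc28a3, -0.19 to 0.22 for Slc29a1, -0.21 to 0.0018 for Slc29a2, -0.22 to 0.73 for Slc29a4, -0.24 to 0.35 for Dck, -0.0291 to 0.19 for Rrm1 and -0.34 to 0.20 for Rrm2.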
